A study of Mus musculus with 16 samples.

Results

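The genes described here encode subunits of the ionotropic AMPA and NMDA glutamate receptors. They are Gria1, Gria2, Gria3 and Gria4 for the AMPA receptor and Grin1, Grin2a, Grin2b, Grin2c, Grin2d and Grin3a for the NMDA receptor, 10 genes of the 25006 in the count files, chosen by name and matched by Ensembl identifier, and all 10 were found. Their mRNA was measured in ribosome-bound RNA pulled down from dopaminergic neurons of the mouse substantia nigra with RiboTag, a tagged ribosomal protein made from a Cre-dependent AAV (AAV9-EF1a-DIO-Rpl22l1-Myc-DDK). One library was sequenced for each of 8 control mice of genotype DAT-Cre+/- and 8 MCU-KO mice, in which the mitochondrial calcium uniporter gene was also floxed on both alleles (DAT-Cre+/- MCU fl/fl), all at postnatal day 45, with tissue taken 30 days after the injection. Mice of both groups carried 1 DAT-Cre allele and received the same virus, so Cre and the tag were common to both. The control mice came from a cross of DAT-Cre+/+ with C57/BL6 mice and so carried no floxed allele, which means that genotype and breeding cannot be told apart. Cre was driven by the dopamine transporter (DAT) promoter, and only cells that the virus reached could be tagged. Libraries of the whole tissue before pulldown were not analysed here. In pooled RNA of this kind, fewer cells of a type and less RNA per cell cannot be told apart.

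AMPA receptors carry the fast excitatory current at most central synapses. They assemble from the products of Gria1 to Gria4 (GluA1 to GluA4), and the presence of edited GluA2 makes the channel nearly impermeable to Ca2+. NMDA receptors open slowly, need glutamate and a coagonist together with depolarization, and admit Ca2+. Each contains the obligatory GluN1 (Grin1) with GluN2 subunits (Grin2a to Grin2d), which set kinetics and block by Mg2+, or with GluN3 subunits such as GluN3A (Grin3a), which lower Ca2+ permeability. In dopaminergic neurons these receptors carry the excitatory input that turns pacemaking into bursts, and GluN2B and GluN2D are the GluN2 subunits usually named for the adult nigra.

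The coding sequence around 1 pore residue of each AMPA receptor subunit, the Q/R site in the pore loop, is shown because that residue is known to set Ca2+ permeability. The sequences are of the reference transcripts (GENCODE M21, GRCm38), 5′ to 3′ on the coding strand, with the codon of the site in capitals and 8 codons on either side.
Gria1: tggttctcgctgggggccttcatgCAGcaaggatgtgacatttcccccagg
Gria2: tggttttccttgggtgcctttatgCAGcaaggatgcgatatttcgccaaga
Gria3: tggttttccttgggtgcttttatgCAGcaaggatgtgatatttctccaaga
Gria4: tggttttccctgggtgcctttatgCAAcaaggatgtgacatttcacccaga
All 4 genes encode glutamine here, Gria2 at codon 607 of its coding sequence (exon 11 of 16, chr3:80706911-80706913, minus strand). In Gria2 the transcript is edited at this codon by ADAR2 (Adarb1), after which it is read as arginine. Over the 51 bases, Gria2 was 94.1% identical to Gria3 and 80.4% identical to Gria1, the lowest and the highest of the 6 pairs being 80.4% and 94.1%. The counts give 1 value per gene and hold no editing state.

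Libraries held 18999107 to 22016362 counts in control mice and 14129527 to 20582204 in MCU-KO mice, the lowest in MCU-KO mouse 8, so that 3 counts were worth 0.136 to 0.212 CPM, the unit of counts after scaling to library size. The 10 subunit genes together took 632 to 809.96 CPM in control and 621 to 929 in MCU-KO mice. The smallest count of any subunit gene in any mouse was 14. Mcu, the targeted gene, had 454 ± 274 normalized counts (counts divided by DESeq2's size factors; mean ± SD, n = 8) in control and 199.9 ± 139 in MCU-KO mice. The groups overlapped, and the 95% confidence interval (CI) of the log2 fold change, −1.19, reached from −2.41 to 0.04. With DESeq2 the log2 fold change was −1.18 (unadjusted p = 0.0405, adjusted p = 0.795). The lower mean in MCU-KO mice follows the labels, and the counts cover all exons of the gene, floxed or not. All 13 dopaminergic neuron markers were detected in every mouse, with summed normalized counts of 290067 to 373602 in control and 248187 to 415672 in MCU-KO mice. Markers of other cells were also counted. The 8 astrocyte markers summed to 8984 to 17197 in control and 10546 to 21295 in MCU-KO mice, and the 8 markers of oligodendrocytes and their precursors to 54626 to 105582 and 64762 to 124382. In each of these glial lists 7 of 8 genes were higher in MCU-KO and 0 passed the test, with 1 astrocyte marker at an unadjusted p under 0.05 (edgeR). Over all genes tested, 0.178% passed and 4.41% had an unadjusted p under 0.05 (edgeR). Of the other lists, GABAergic markers summed to 4394 to 8391 in control and 4720.5 to 7698 in MCU-KO mice, glutamatergic markers to 250.3 to 978 and 238 to 1990.3 with Slc17a8 at 0 in every mouse, microglial markers to 479 to 1874 and 557 to 2643, and endothelial markers to 145 to 678 and 124 to 419, again with 0 genes past the test. Among tested markers, 4 of 5 GABAergic, 1 of 2 glutamatergic, 5 of 6 microglial and 0 of 3 endothelial genes were higher in MCU-KO. The same held for 5 of 13 dopaminergic markers.

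The comparison of MCU-KO with control mice asks whether loss of the uniporter in these neurons went with a different set of glutamate receptor mRNAs. None of the 10 subunit genes passed the test. All 10 had enough counts to be tested by edgeR (quasi-likelihood, Benjamini-Hochberg over 12390 genes), and the adjusted p was under 0.05 for 0 of them, against 0.178% of all genes tested. At an unadjusted p under 0.05 the number was again 0 with edgeR and 0 with DESeq2, against 4.41% of all genes with edgeR. The normalized counts of the groups overlapped for 10 of the 10 genes, and 0.258% of all genes tested had groups that did not overlap. Fold changes were small and of either sign, with 7 genes higher and 3 lower in MCU-KO and a median log2 fold change of 0.09 beside 0.0025 over all genes tested. The 95% confidence interval contained 0 for 10 of 10 genes and lay within a 2-fold change in either direction for 9, the exception being Grin2c.

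**Figure D1:**
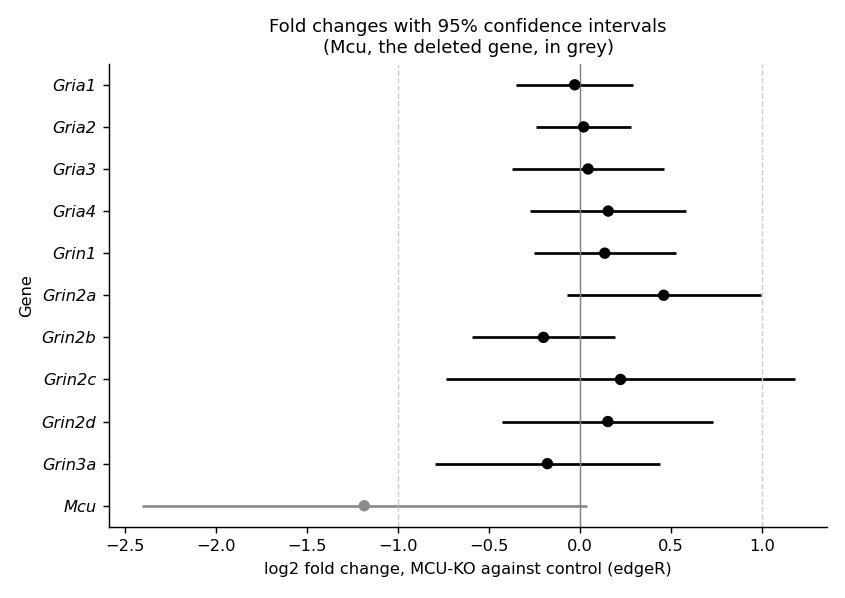
Log2 fold change of each subunit gene and of Mcu, MCU-KO against control, as points with 95% confidence intervals from edgeR (n = 8 mice a group), and dashed lines mark log2 values of −1 and 1. Each interval crosses 0, and among the subunit genes only that of Grin2c extends beyond 1.

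Among the AMPA receptor genes the 95% intervals were narrowest for Gria2, the subunit that sets Ca2+ permeability. Gria2 had 2859 normalized counts in the lowest, 4191 in the median and 4709 in the highest control mouse, and 3226, 3738 and 5005 in MCU-KO mice. The 2 ranges overlapped almost fully, and edgeR gave a fold change of 0.02 on the log2 scale (SE 0.13, 95% CI −0.24 to 0.28), that is, between 0.847 and 1.21 times the control level. Adarb1, whose product edits Gria2 at the codon shown above, had 660.5, 1199 and 1833 normalized counts in the lowest, median and highest control mouse and 816, 1348 and 1857 in MCU-KO mice, which is 0.13 on the log2 scale (95% CI −0.29 to 0.54).

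Gria1, which encodes the subunit inserted into synapses during potentiation, ranged from 1189.7 over a median of 1880.4 to 2312 normalized counts in control mice and from 1231 over 1733 to 2357 in MCU-KO mice. On the log2 scale the fold change was −0.03 (SE 0.16, 95% CI −0.35 to 0.29), and 2 of 8 MCU-KO mice lay above the control median. Gria3, on the X chromosome, had 1267, 1909 and 3233 normalized counts in the lowest, median and highest control mouse and 1336, 1799.7 and 3120.3 in MCU-KO mice. Its highest value stood apart in control (mouse 6), whereas the medians of the groups lay close together, and the log2 fold change was 0.04 (95% CI −0.37 to 0.46).

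Gria4, which encodes a subunit with fast kinetics, had 578, 1283 and 1783 normalized counts in the lowest, median and highest control mouse and 1061, 1248 and 2378 in MCU-KO mice. The highest value, in MCU-KO mouse 4, exceeded the next mouse of that group (1466) by more than the other 7 differed among themselves, and the remaining 7 lay inside the control range. With all mice the log2 fold change reached 0.16 (SE 0.21, 95% CI −0.27 to 0.58), and without MCU-KO mouse 4 it was −0.0031. That mouse also had the highest mean level of the glial markers (astrocyte, oligodendrocyte and microglial lists together), 6.19 log2 CPM against group means of 4.87 ± 0.56 (SD, n = 8) in control and 5.29 ± 0.48 in MCU-KO. With the glial mean as a covariate the Gria4 log2 fold change was −0.11. Over all 16 mice the log2 CPM of Gria4 correlated with the glial mean (Pearson 0.73, Spearman 0.62), more than that of any other subunit gene. Whether glial RNA contributed to the Gria4 counts was not tested.

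**Figure D2:**
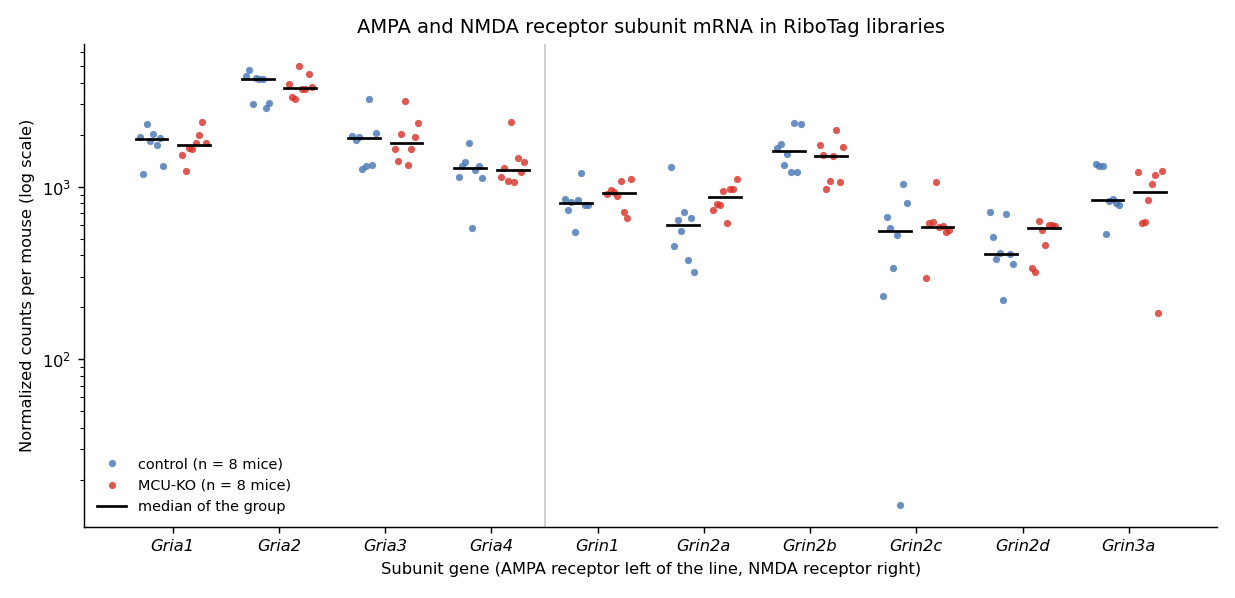
Normalized counts of the 10 subunit genes in each of 8 control (blue) and 8 MCU-KO (red) mice, on a log axis, with a bar at each group's median; AMPA receptor genes stand left of the grey line and NMDA receptor genes right of it. The groups overlap in each gene, the highest mouse lay apart from its group for Gria3 and Grin1 (control mouse 6), Grin2a (control mouse 1), and Gria4 and Grin2c (MCU-KO mouse 4), and the lowest points of the plot are Grin2c in control mouse 6 (14.3) and Grin3a in MCU-KO mouse 7 (186).

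Of the NMDA receptor genes, Grin1 encodes the subunit that every NMDA receptor contains. It had 542, 799.9 and 1206 normalized counts in the lowest, median and highest control mouse and 658, 919 and 1104 in MCU-KO mice. In 6 of 8 MCU-KO mice the level was above the control median, but the MCU-KO range lay within that of the control mice, and the fitted log2 difference was 0.14 (SE 0.19, 95% CI −0.25 to 0.53). Grin3a, whose product binds glycine in place of glutamate, had 532, 838 and 1359 normalized counts in control and 186, 934 and 1234 in MCU-KO mice, in the same order. The lowest value was that of MCU-KO mouse 7. The log2 fold change of Grin3a was −0.18 with all mice (95% CI −0.80 to 0.44), −0.025 without that mouse and −0.41 with the glial covariate. The other GluN3 gene, Grin3b, was not a member of the set. It had no counts in 7 of 8 control and 7 of 8 MCU-KO mice, and at most 1.85 normalized counts in any mouse, and was not tested.

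Grin2a had the largest fold change of the 10 genes and did not pass the test. It encodes GluN2A, the subunit that gives fast NMDA currents and that rises after birth in many neurons. Control mice had 320.2, 597 and 1299.5 normalized counts (lowest, median, highest) and MCU-KO mice 615, 868 and 1106. Each of the 8 MCU-KO mice lay above the control median, while the highest control mouse, number 1, lay above all MCU-KO mice and stood apart from the next control mouse at 716. With all mice the log2 difference, MCU-KO minus control, was 0.46 (SE 0.26, 95% CI −0.07 to 0.99), at an unadjusted p of 0.0866 and an adjusted p of 1.00 in edgeR. Without control mouse 1 the log2 fold change was 0.70 and the unadjusted p 0.0058 (edgeR), and still 0 subunit genes passed the adjustment. With limma-voom and all mice the log2 difference was 0.55 (unadjusted p = 0.0342), also not past the adjustment. In edgeR, across the omission of each of the 16 mice, the log2 fold change stayed between 0.37 and 0.70. The unadjusted p (edgeR) lay between 0.0058 and 0.156 over these omissions. Only that of control mouse 1 brought it under 0.05, the next being 0.0595 without MCU-KO mouse 5. With the glial covariate the unadjusted p was 0.141 (edgeR).

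Grin2b encodes GluN2B, the subunit of slow, strongly Mg2+-blocked receptors. It had 1212, 1602 and 2343 normalized counts in the lowest, median and highest control mouse and 971, 1509.7 and 2117 in MCU-KO mice. Its log2 difference was −0.20 (SE 0.19, 95% CI −0.59 to 0.19), and 3 of 8 MCU-KO mice were above the control median. Grin2a and Grin2b lay on opposite sides of 0, with the highest and the lowest log2 fold change of the 10 genes. Their ratio within each mouse was taken after these values had been seen. A difference between the groups in this ratio follows from that choice, and it was not tested. The log2 ratio of Grin2a to Grin2b, in normalized counts not divided by length, was −2.85 in the lowest, −1.26 in the median and −0.36 in the highest control mouse. In MCU-KO mice these values were −1.29, −0.78 and −0.14. Grin2b had more counts than Grin2a in 8 of 8 mice of each group, the groups overlapped, and 7 of 8 MCU-KO mice lay above the control median of the ratio. The means differed by 0.77, and by 0.57 to 0.93 when any 1 mouse was left out.

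Grin2c and Grin2d encode the subunits with weak Mg2+ block. Grin2c had 14.3, 552 and 1033 normalized counts in the lowest, median and highest control mouse and 294, 586 and 1065 in MCU-KO mice. The lowest value came from control mouse 6, which had 14 counts of Grin2c before normalization, and the highest normalized counts of Gria3, Grin1 and Grin2b in its group. For Grin2c the log2 difference was 0.22 (SE 0.46, 95% CI −0.74 to 1.18), the widest interval of the 10 genes, and it was 0.04 without control mouse 6, 0.44 without control mouse 7 and 0.06 without MCU-KO mouse 4. Fitted with limma-voom it was 0.71, also past no threshold. Grin2d had 220.0, 407 and 712 normalized counts in control mice and 320.5, 577 and 630.4 in MCU-KO mice, in the order lowest, median and highest. All MCU-KO mice lay within the control range, and the log2 fold change was 0.15 (95% CI −0.43 to 0.73).

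Which subunit mRNA was most abundant in the control libraries depended on the length by which the counts were divided. Glial markers were counted in the same libraries, and the part of other cells in these levels, orders and shares was not tested. The subunit genes differ widely in how much of their exon sequence is noncoding. By all annotated exons together (union exon length) Grin2b has 24.8 kb and Grin2c 5.04 kb, whereas their coding lengths are 4.45 and 3.72 kb. Per kb of union exon length, the AMPA receptor order in control mice was Gria1 (296 ± 60.8 normalized counts per kb, SD, n = 8), Gria2 (246 ± 46.8), Gria4 (196 ± 53.4) and Gria3 (190.0 ± 64.8). The NMDA receptor order by the same measure was Grin2c (104 ± 64.4), Grin1 (84.5 ± 19.0), Grin3a (79.5 ± 25.5), Grin2d (69.2 ± 25.4), Grin2b (67.4 ± 18.1) and Grin2a (35.0 ± 17.1). Read in control mice, these orders were then tested in the MCU-KO mice, which had not set them. Of the 8 neighbouring pairs, 0 differed beyond the spread between mice (exact sign-flip permutation test on the log2 ratio within a mouse, two-sided, smallest p = 0.0625, 0.188 after Benjamini-Hochberg adjustment over the 8 pairs). The smallest p that 8 mice allow is 0.0078.

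Per kb of coding length the order was Gria2 (1366 ± 259.6 normalized counts per kb), Gria3 (674 ± 229.7), Gria1 (629.9 ± 129.6) and Gria4 (433.5 ± 118), and among NMDA receptor genes Grin2b (377 ± 101), Grin3a (287 ± 92.0), Grin1 (278 ± 62.6), Grin2a (143 ± 69.7), Grin2c (141 ± 87.3) and Grin2d (116 ± 42.6). Grin2b thus moved to the first place and Grin2d to the last. In MCU-KO mice 3 of these 8 pairs then passed. Gria2 exceeded Gria3 in each of 8 mice, and the log2 ratio averaged 1.03 ± 0.31 (SD, n = 8, adjusted p = 0.0312, exact sign-flip permutation test). Grin2b was above Grin3a in 7 of 8 mice (log2 ratio 0.51 ± 0.71, adjusted p = 0.0417 in the same exact test), and Grin1 above Grin2a in 8 of 8 mice (0.64 ± 0.44, adjusted p = 0.0312, exact). Per kb of the longest protein-coding transcript the order was Gria2, Gria3, Gria1 and Gria4, then Grin1, Grin3a, Grin2c, Grin2d, Grin2b and Grin2a, and 0 pairs passed. The Grin1 to Grin3a pair came nearest, with Grin1 above in 8 of 8 MCU-KO mice (adjusted p = 0.0625, exact). The counts cover all exons, whereas the coding length leaves out noncoding sequence. The order by coding length was the same as that without length correction. The 3 pairs that passed by coding length thus rest on a divisor that does not match what was counted. Which exons these neurons used was not known from counts per gene, so no choice between union exon length and longest transcript can be made.

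**Figure D3:**
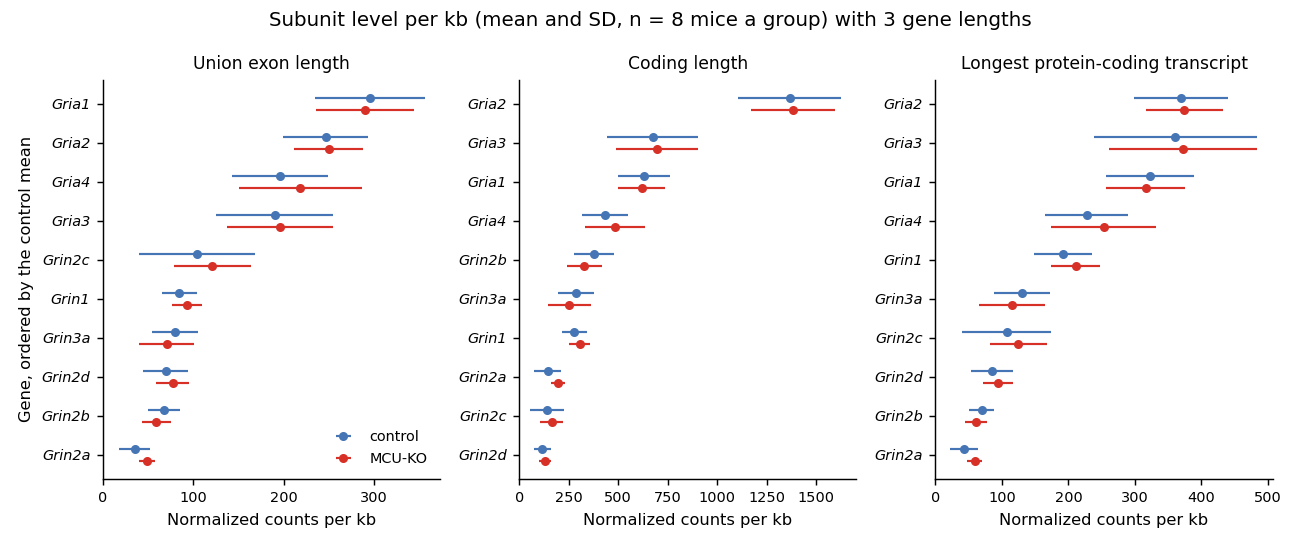
Mean normalized counts per kb of each subunit gene with the SD over 8 control (blue) and 8 MCU-KO (red) mice, divided by union exon length, coding length or the length of the longest protein-coding transcript; genes are ordered by the control mean in each panel, and the horizontal scales differ. AMPA receptor genes take the 4 upper places in each panel, while Grin2b stands last but one by union exon length and first of the NMDA receptor genes by coding length.

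What did not depend on the choice among the 3 lengths was that AMPA receptor mRNAs together outnumbered NMDA receptor mRNAs. The summed level of the 4 AMPA receptor genes per kb exceeded that of the 6 NMDA receptor genes in 8 of 8 control and 8 of 8 MCU-KO mice with each of the 3 lengths. Taken singly, per kb of union exon length, an AMPA receptor gene lay above an NMDA receptor gene in 189 of 192 within-mouse comparisons in control and 192 of 192 in MCU-KO mice. By coding length these were 185 and 192 of 192, and by longest transcript 188 and 187 of 192. These comparisons share mice and genes and are not independent. By union exon length, each AMPA receptor gene lay above each NMDA receptor gene in 6 of 8 control and 8 of 8 MCU-KO mice. By coding length this held in 4 and 8 of 8 mice, and by longest transcript in 6 and 3. Without length correction the control mean of Grin2b (1675 normalized counts) was above that of Gria4 (1236). The sum of the AMPA receptor genes was 11.4 ± 2.78 times Grin1 in control and 10.7 ± 3.19 times in MCU-KO mice per kb of union exon length, and 6.90 ± 1.54 and 6.47 ± 1.93 times by longest transcript (SD, n = 8 each). The 4 GluN2 genes together were 3.40 ± 0.87 times Grin1 in control and 3.39 ± 0.93 times in MCU-KO mice by union exon length, and 1.65 ± 0.41 and 1.66 ± 0.46 times by longest transcript.

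As a share of all AMPA receptor subunit counts per kb of union exon length, Gria2 took 26.6% ± 4.96 (SD, n = 8) in control mice, with a range of 19.5% to 33.7%, and 26.3% ± 2.07 in MCU-KO mice. The difference of −0.31 percentage points (95% CI −4.42 to 3.78) was smaller than the spread between mice (p = 0.868, exact permutation test over 12870 splits, two-sided, 0.889 after adjustment over the 2 shares tested). By union exon length Gria1 had the highest share in 6 of 8 mice of each group, with means of 32.0% and 30.7%. Gria3 and Gria4 took 20.3% and 21.1% in control and 20.3% and 22.7% in MCU-KO mice. Divided by coding length, Gria2 took 43.9% ± 6.28 in control mice and was the highest of the 4 genes in 8 of 8 mice of each group. By longest transcript, Gria1 was the highest in only 2 of 8 control and 1 of 8 MCU-KO mice, with means of 25.4% and 24.3%. Gria2 was then the highest in 4 of 8 mice of each group (means 29.0% and 28.7%), and Gria3 in 2 control and 3 MCU-KO mice. The leading subunit thus depended on the length.

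Grin2d took 25.8% ± 11.1 (SD, n = 8) of the GluN2 counts per kb of union exon length in control mice, from 14.6% to 46.8%, and 25.2% ± 4.58 in MCU-KO mice. The highest share was in control mouse 6, where Grin2c was lowest. The difference was −0.63 percentage points (95% CI −9.82 to 8.14; p = 0.889, exact permutation test, two-sided, 0.889 after adjustment), and with coding length it was 1.03, of the opposite sign. Grin2c had the highest share, in 6 of 8 control and 7 of 8 MCU-KO mice, with 36.0% ± 19.0 and 39.0% ± 8.24. Grin2b took 25.2% ± 8.37 in control and 19.9% ± 6.81 in MCU-KO mice, and Grin2a 13.0% ± 6.07 and 15.9% ± 2.43. With coding length Grin2b was the highest in 7 of 8 mice of each group, with 48.4% in control and 40.1% in MCU-KO mice, and Grin2d took 14.8% and 15.8%. By longest transcript Grin2c was the highest in 5 of 8 control and 7 of 8 MCU-KO mice, and Grin2d took 28.4% and 27.8%.

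**Figure D4:**
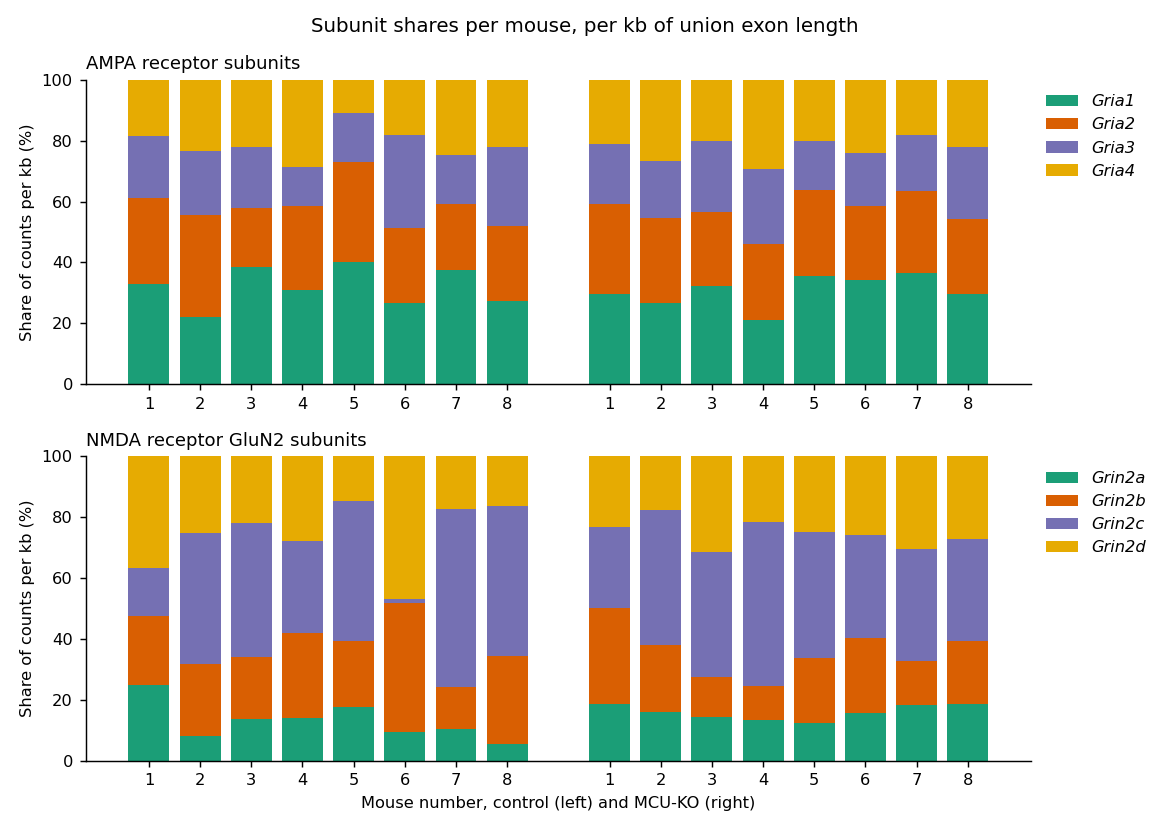
Share of each subunit gene, in percent of the counts per kb of union exon length of its family, in each of 8 control mice (left) and 8 MCU-KO mice (right); upper panel AMPA receptor genes, lower panel GluN2 genes. Gria2 takes between 19.5% and 33.7% in control mice, and the Grin2c share of control mouse 6 is 1.28%.

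The subunit genes also differed in how much they varied between mice of 1 group, measured by edgeR's biological coefficient of variation and set beside genes whose mean log2 CPM lay within 0.5. Grin1 varied less than most, at 0.28, with 4.73% of 2221 such genes below it, as did Grin2d at 0.40 (14.6% of 2213 below) and Gria1 at 0.23 (22.7% of 1690 below). Grin2c varied more than most, at 0.63, with 93.0% of 2215 genes below it. Grin3a at 0.42 and Gria3 at 0.29 had 80.2% and 75.1% of such genes below them. MCU-KO mouse 4 had the highest value of its group for 4 of the 10 subunit genes, and control mice 1 and 6 and MCU-KO mouse 8 for 3 each.

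Genes whose products work with these receptors were also counted, by role. Of 76 listed genes 73 were tested, 35 higher and 38 lower in MCU-KO, with a median log2 fold change of −0.01. None had an adjusted p under 0.05 in edgeR or DESeq2. Over all genes tested, 0.178% had one in edgeR, so 0 of 73 is no result about these genes. With each tool 2 of the 73 had an unadjusted p under 0.05. Of all 12390 genes, 547 had one with edgeR (4.41%) and 687 with DESeq2. Among 16 auxiliary subunits and assembly partners of AMPA receptors, 7 were higher and 9 lower. Ptpn5, a phosphatase of receptor subunits and the most abundant of this list, had a log2 fold change of −0.09. Gsg1l, an auxiliary subunit that dampens AMPA receptor function, had 1753 to 3465 normalized counts in control and 1692 to 4712 in MCU-KO mice and a log2 fold change of 0.37 (unadjusted p = 0.049, adjusted p = 1.00 in edgeR), and Cacng7 had 0.97 with a 95% CI of −0.83 to 2.76 at a mean of 25.1 normalized counts in control.

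Of the 9 kainate and delta receptor genes 4 were higher and 5 lower, with log2 fold changes of −0.04 for Grik5, 0.37 for the kainate auxiliary subunit Neto2 and 0.87 for Grik2. Of the 8 metabotropic receptor genes 6 were tested, 3 higher and 3 lower. Grm5, the gene of highest level in this list, had 0.18, and Grm3 and Grm2 had −1.17 and −0.96 at mean control levels of 145 and 176 normalized counts, with intervals of −2.80 to 0.46 and −3.05 to 1.14. Among 31 genes of the postsynaptic scaffold and receptor trafficking, 15 were higher and 16 lower. Lrrtm2, a synaptic adhesion protein that holds AMPA receptors at the synapse, had the smallest p of all partner genes. Its normalized counts were 731, 1042 and 1186 in the lowest, median and highest control mouse and 924, 1471 and 1807 in MCU-KO mice, overlapping, with a log2 fold change of 0.47 (SE 0.18, unadjusted p = 0.0153, adjusted p = 0.944 in edgeR). Nsf, the trafficking ATPase that binds GluA2, had −0.12, and Camk2a 0.66 (95% CI −0.13 to 1.44). In the list of editing enzymes and of coagonist (glycine and D-serine) supply, 11 of 12 were tested, 6 higher and 5 lower. Slc1a4 and Slc7a10, transporters of neutral amino acids that include D-serine, had −0.22 and 0.75, and Adarb2, an inactive relative of the editing enzymes, −0.31.

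**Figure D5:**
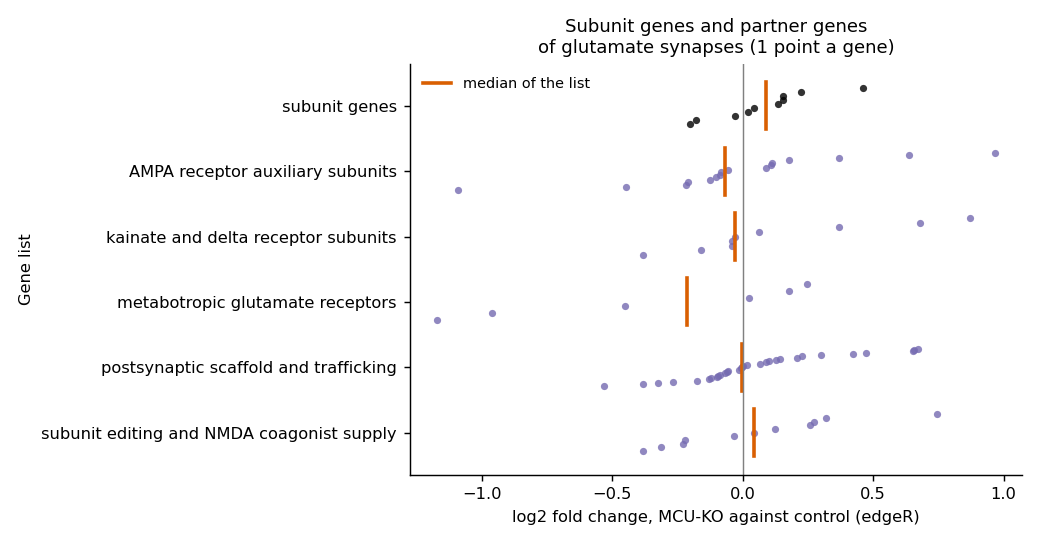
Log2 fold change, MCU-KO against control (edgeR), of each subunit gene (black) and each tested partner gene (purple), 1 point a gene, grouped by list, with an orange bar at the median of the list. The medians lie between −0.21 for metabotropic receptors and 0.09 for the subunit genes, and 0 of the points passed the adjusted threshold.

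Counts of some subunit genes could include reads of other transcripts, or lack reads that match more than 1 gene. When annotated transcripts were cut into stretches of 50 bases, 11.6% of those of Grin2a, 8.24% of Grin1 and 7.57% of Grin2d also occurred in another gene's transcripts on either strand, and at most 0.882% in the other 7. For Grin2a the match was chiefly to the gene model Gm7328, for Grin1 to the antisense Grin1os (1307 bases of exon overlap, 0 counts in every mouse) and for Grin2d to the antisense Gm45441 (643 bases of exon overlap, not in the count files). Whether counting used strand is not given in the sources used here, so reads of Grin1 and Grin2d and of their antisense partners cannot be told apart. On GRCm38 the annotation places Gria1 (ENSMUSG00000020524) at chr11:57011387-57330244, Gria2 (ENSMUSG00000033981) at chr3:80681450-80802835, Gria3 (ENSMUSG00000001986) at chrX:41400854-41678601, Gria4 (ENSMUSG00000025892) at chr9:4417896-4796234, Grin1 (ENSMUSG00000026959) at chr2:25291181-25319187, Grin2a (ENSMUSG00000059003) at chr16:9567898-9995560, Grin2b (ENSMUSG00000030209) at chr6:135713233-136173511, Grin2c (ENSMUSG00000020734) at chr11:115249169-115267243, Grin2d (ENSMUSG00000002771) at chr7:45831883-45878378 and Grin3a (ENSMUSG00000039579) at chr4:49661611-49845744.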

How the data were processed

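RiboTag mRNA of 16 mice was sequenced, 8 control and 8 MCU-KO, with groups and mouse numbers taken from the sample titles. The authors trimmed reads with cutadapt (the submitters' processing notes name Trim Galore), used STAR for alignment to mm10 and htseq-count with Ensembl gene models, and deposited whole-number counts without normalization. Versions and the strand setting are not given in the sources used here, and such counts do not resolve transcripts or editing. Gene symbols, lengths and coordinates came from GENCODE M21 (GRCm38).

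Genotypes were compared with edgeR 4.0.16 in R 4.3.3 (filterByExpr by group, TMM, glmQLFit and glmQLFTest; Benjamini-Hochberg over 12390 genes, threshold 0.05), in place of the DESeq2 Wald test of the authors, which was an alternative (DESeq2 1.42.0), as was limma 3.58.1. For levels, counts were divided by size factors from DESeq2. Shares were compared by an exact permutation test over 12870 splits, and the order of subunits by exact sign flips of within-mouse log2 ratios (256 patterns, pseudocount 1). The p-values set each difference against the spread between these mice, which edgeR estimates with help from other genes. The depth gave a floor of 3 counts, 0.136 to 0.212 CPM, for counting error only. Other alternatives were other normalizations, low-count filters, a block for mouse number, marker covariates, gene lengths and the omission of each mouse. The members and gene lists were chosen with earlier results of these data known. Named partner genes were, in each list, the one of highest mean level and the 2 with the smallest p, and Adarb1, Mcu, Grin3b, Th and Slc6a3. Th and Slc6a3 had log2 fold changes of −0.06 and −0.15. The fit was tested on simulated counts. Some sequences are not reported here. Scripts used Python 3.11.15 with pandas 2.3.3 and scipy 1.17.1, and matplotlib 3.10.9.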

Additional observations from a re-analysis of the deposited data

Results flagged for a closer look

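In 5 of the 24 groups of 8 mice examined (10 subunit genes and 2 shares, in each genotype), the highest mouse lay apart from the other 7 by Dixon's ratio. The ratio was taken on values without logs, a scale that favours high values. Chance gives about 1 in 20 only for independent groups of normally distributed values. These groups share mice, so the number flagged cannot be read as an excess. Control mouse 6 had 3233 normalized counts of Gria3, with the next mouse at 2035, and 1206 of Grin1, with the next at 852. Control mouse 1 had 1299.5 of Grin2a, with the next at 716. MCU-KO mouse 4 had 2378 of Gria4, with the next at 1466, and 1065 of Grin2c, with the next at 623. The low Grin2c value of control mouse 6 and the low Grin3a value of MCU-KO mouse 7 did not lie apart by this measure, which gives low values little weight. Control mouse 6 had 14.3 normalized counts of Grin2c, with the next lowest at 233. MCU-KO mouse 7 had 186 of Grin3a, with the next lowest at 613. A ratio on logged values was not taken.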

How the results depend on the processing

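The number of subunit genes and of partner genes past the threshold was 0 in each alternative: DESeq2, limma-voom, 2 other normalizations, 2 other filters, the replicate block, both marker covariates and the omission of each mouse (lowest 0, highest 0). Over all genes the count was 22, 90 with DESeq2, 14 with the replicate block and 18 to 24 without 1 mouse. Among 25 alternatives the sign of the log2 fold change differed from the main one in 4 for Gria1, 6 for Gria2, 5 for Gria3 and 2 for Gria4, and in 0 for the NMDA receptor genes. The log2 fold change moved most from the main fit for Grin2c with limma-voom (0.22 to 0.71) and with the replicate block (to 0.50), Gria4 with the glial covariate (0.16 to −0.11), Grin2a without control mouse 1 (0.46 to 0.70) and Grin3a with the glial covariate (−0.18 to −0.41).

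The length decided the levels. The Gria2 share in control mice was 43.9% by coding length and 43.8% without length correction, and the Grin2d share was 13.8% without length correction. The number of neighbouring pairs that passed was 3 by coding length and 2 without length correction. Without 1 mouse, the Gria2 share lay between 25.6% and 27.6%, the Grin2d share between 22.8% (without control mouse 6) and 27.4%, and their differences between MCU-KO and control between −1.33 and 0.69 and between −2.24 and 2.36 percentage points.

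Same-numbered mice of the groups did not deviate together. The correlation of their deviations from the group means lay between −0.061 and 0.031 over 8 pairs, 0 of 8 over 0.1, and 0 of 8 mice correlated best with their own number. As a replicate block the number left 0 subunit genes called, and the share differences of −0.31 and −0.63 percentage points had p = 0.828 and p = 0.883 (exact sign-flip permutation test over same-numbered pairs). The low-count filter kept Grin3b out of the test, whereas each subunit gene had at least 14 counts in every mouse. The 95% interval of Grin2c spanned 0.601 to 2.27 times the control level, the widest of the 10.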
